A study of Mus musculus with 3 samples.

Results

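The transcripts described here are those of Nfe2l2, which encodes the transcription factor NRF2, its inhibitor Keap1, and 8 antioxidant and detoxifying genes that NRF2 is known to activate, Hmox1, Nqo1, Gclc, Gclm, Txnrd1, Srxn1, Slc7a11 and Osgin1. They were chosen by name, and all 10 were found once each among the 43472 rows of the deposited table. Primary fibroblasts from C57BL/6 mouse tail tips were scratched as an in vitro wound and received the soluble MG, a cell-depleted extract of ground mouse skin, together with the MEK inhibitor PD0325901 for 5 h. All 3 libraries, replicates 1, 2 and 3, carry both agents. Neither the animals' age and sex nor whether replicates came from separate mice or cultures was given in the sources used here, so the spread between them may be technical in part. Samples without the inhibitor or without MG were not analysed here, so the data show how abundant these transcripts were and how far they differed between libraries, and not whether either agent changed them.

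NRF2 is a basic leucine zipper factor that pairs with small MAF proteins on antioxidant response elements (ARE). In resting cells KEAP1, an adaptor of the CUL3 ubiquitin ligase, presents NRF2 for degradation, and oxidants or electrophiles that modify KEAP1 cysteines let newly made NRF2 accumulate. The control is therefore largely at the protein level and is not read by RNA-seq, which measures the Nfe2l2 and Keap1 transcripts and those of the target genes. In wounded skin the pathway is known for protecting cells against reactive oxygen species and against heme released from damaged tissue.

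Read counts recovered from the table summed to between 17244505 and 27037783 per library, and replicate 2 stood further from the other libraries than these did from each other. Values over 2-fold from both others, in either direction, were found there for 10.1% of the 13154 genes with a mean of at least 10 normalized counts, against 4.26% for replicate 1 and 3.58% for replicate 3. The fibroblast markers were detected in every library (8 of 8), led by Col1a1 at 185951 ± 52184 normalized counts (SD, n = 3), but Lum, a proteoglycan gene of the same list, had 5073, 289 and 1164 in replicates 1, 2 and 3. In bulk RNA, fewer cells of a type and less RNA per cell cannot be told apart.

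Hmox1 was among the most abundant transcripts of these fibroblasts, and all 10 genes were expressed at levels far above the limit of detection. A gene counted as detected at 10 normalized counts in every library, as 12204 of the 20322 genes with any reads were. The lowest value of any member was 242, for Osgin1 in replicate 2, which rested on 343 reads. Divided by exonic length, so that genes can be compared, Hmox1 had 54865 ± 17476 normalized counts per kb (SD, n = 3). Srxn1 followed with 4331 ± 1439, Txnrd1 with 2300 ± 639 and Nqo1 with 2250 ± 394 normalized counts per kb. Nfe2l2 stood at rank 5 with 1169 ± 167 per kb, and Gclm, Gclc, Keap1, Osgin1 and Slc7a11 made up the rest with means between 559 and 131 per kb.

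The steps from Hmox1 to Srxn1, from Srxn1 to Txnrd1, from Nqo1 to Nfe2l2 and from Nfe2l2 to Gclm were separated, in that the lowest library of the higher gene was above the highest library of the lower. Txnrd1 and Nqo1 overlapped, as did each neighboring pair from Gclm down to Slc7a11. These separations and overlaps hold for all exonic bases, which exceed the longest transcript for Txnrd1 (7086 against 3622) and Nfe2l2 (3796 against 2475). Those of Txnrd1 with Srxn1 and Nqo1, and of Nqo1 with Nfe2l2, depend on the length used. With the longest transcript in place of all exonic bases 8 of the 10 genes kept their rank, while Txnrd1 and Srxn1 changed places. Without the division by length, 1 of 10 did, Hmox1 at the top.

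**Figure D1:**
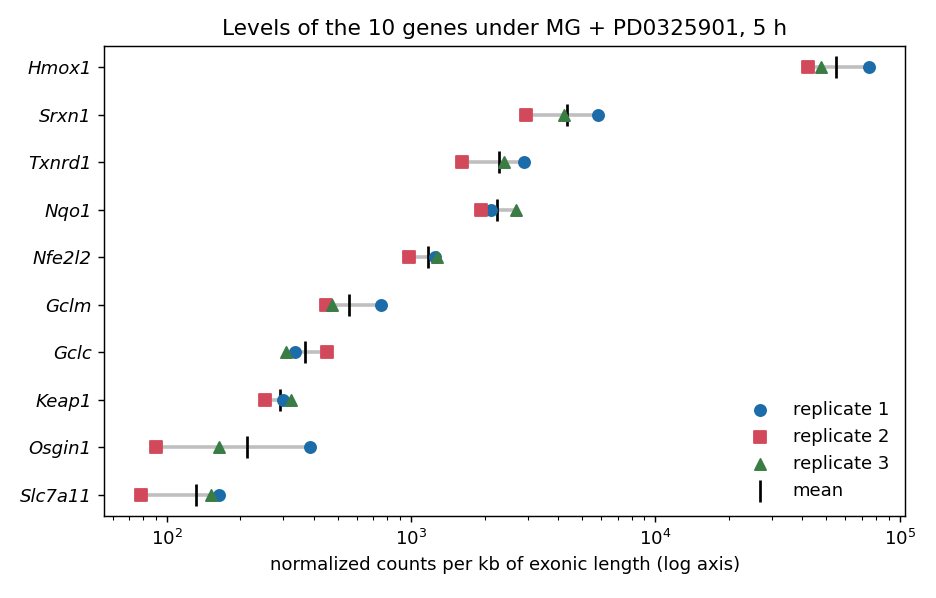
Level of each gene in normalized counts per kb of exonic length (log axis), with 1 point for each of the 3 MG + PD0325901 libraries, a grey line over their range and a black bar at the mean. Hmox1 lies apart at 54865 per kb on average, while the ranges of Gclm, Gclc, Keap1, Osgin1 and Slc7a11 overlap from each gene to the next.

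The libraries differed in the same sense for most members, with replicate 2 lowest for 9 of 10 genes. Over all 13154 genes with a mean of at least 10, replicate 2 was lowest for 37.5%. With the libraries scaled to equal totals it was lowest for 8 of 10, since Gclm then had 2882 in replicate 3 and 2904 in replicate 2. The exception under every scaling was Gclc, which was highest in replicate 2. Replicate 1 was highest for 6 members and lowest for none, and the share over all genes was not counted for either. The median over the members of the log2 ratio of replicate 1 to the mean of the others was 0.57, against -0.02 over all genes. In replicate 2 it was -0.47, against 0.02 over all genes. The value for replicate 1 was 0.20 with replicate 2 left out.

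Most of these differences were moderate. The highest library was more than 2-fold above the lowest, on values with 1 added, for 2 of the 10 genes, Osgin1 and Slc7a11, and over all detected genes this share was 21.6%. Only Osgin1 was more than 2-fold from both other libraries in any replicate, above them in replicate 1. The plot of deviations from each gene's mean shows the order, from Osgin1 with a 4.26-fold range through Slc7a11 with 2.10-fold and Srxn1 with 1.97-fold down to Nfe2l2 with 1.31-fold and Keap1 with 1.27-fold. The SD of log2(normalized count + 1) was 1.05 for Osgin1 and 0.18 for Keap1, with a median of 0.30 over all detected genes. Osgin1 thus varied more than 96.0% of detected genes and Keap1 more than 23.9%.

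**Figure D2:**
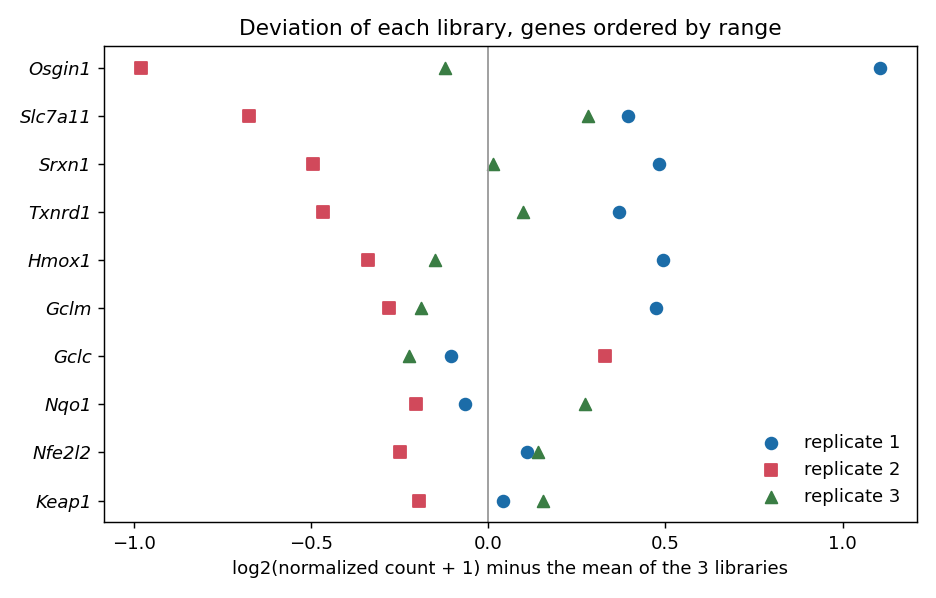
Deviation of each library from the mean of the 3, in log2(normalized count + 1), with genes ordered by the ratio of their highest to their lowest library. Replicate 2 is the lowest point for every gene except Gclc, and the spread is widest for Osgin1, at 4.26-fold.

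Reads were also compared between libraries with two-sided exact binomial tests (Benjamini-Hochberg adjusted over every gene reaching 10 reads in a pair, threshold 0.05). These cover counting error only and compare libraries, not conditions. The shares over all genes include genes with as few as 10 reads in a pair. Each member had at least 343 reads in every library, so members and all genes are not matched for depth. All 10 members were called between replicates 1 and 2, where 69.1% of all genes were, with 9 higher in replicate 1. Between replicates 2 and 3 all 10 were called as well (62.6% of all genes), 9 of them higher in replicate 3. Between replicates 1 and 3 there were 7 calls (52% of all genes), 6 of them higher in replicate 1. Nfe2l2, Keap1 and Gclc were not called there, with adjusted p = 0.415, 0.0699 and 0.0797 in the exact binomial test, and Slc7a11 was close to the threshold with adjusted p = 0.0262. If the libraries also had to differ by over 2-fold, the calls were Osgin1 and Slc7a11 for replicates 1 and 2 (20.6% of all genes), Osgin1 for replicates 1 and 3 (9.4%) and no member for replicates 2 and 3 (16.6%).

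The DNA before the start sites of the 3 most variable genes is shown here because each holds letters that match a known response element. These letters were added to the search after the files were examined, so the shares below are description and show no enrichment. The planned letters TGACTCAGC occurred in 0 of the 8 members with a window and in 0.503% of all genes. Whether any of these letters bear on the spread between libraries was not tested. Promoter windows (RefSeq, GRCm38.p6, from 250 bases before to 50 after the start) were at hand for 8 of the 10 genes, and Hmox1 and Gclc had none. The letters TGANTCAGC, which contain the AP-1 site TGANTCA, occurred on either strand in Srxn1 and Osgin1 and in 1.37% of all 27025 genes with a window. Both matches read TGAGTCAGC, in Osgin1 on the opposite strand, with G where the ARE core TGACNNNGC has C. The AP-1 letters alone were present in the same 2 members, at 2 places in Srxn1, and in 8.97% of all genes. The letters TGATGCAA, bound by ATF4 with C/EBP proteins, occurred in Slc7a11 only, once on each strand, and in 1.03% of all genes. Capitals mark these letters.
Srxn1 (chr2:152105377-152105515, plus strand, upstream of the gene): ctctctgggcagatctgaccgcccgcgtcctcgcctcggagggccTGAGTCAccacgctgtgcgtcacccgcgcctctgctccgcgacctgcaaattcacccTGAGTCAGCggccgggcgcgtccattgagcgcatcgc
Osgin1 (chr8:119437003-119437101, plus strand, between annotated exons of the gene): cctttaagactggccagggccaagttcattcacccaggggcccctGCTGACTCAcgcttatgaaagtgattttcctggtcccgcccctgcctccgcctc
Slc7a11 (chr3:50443615-50443724, minus strand, upstream of the gene): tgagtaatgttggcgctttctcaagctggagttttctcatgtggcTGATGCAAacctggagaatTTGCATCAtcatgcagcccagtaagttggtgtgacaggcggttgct

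The ARE core TGACNNNGC, which differs from the letters above in its fixed bases, was found in 4 of the 8 members with a window, Gclm, Nfe2l2, Srxn1 and Txnrd1, and in 14% of all genes. In Gclm it lay at chr3:122245423-122245431 and in Nfe2l2 at chr2:75704895-75704903, both upstream of the annotated gene. The match in Txnrd1 was at chr10:82859114-82859122, before 1 of its 3 start sites, and that in Srxn1 was after the start site. Nqo1 and Keap1 held none of the motifs searched in these windows. Such matches are letters in a short window, and binding was not measured here.

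The 2 regulators had the smallest fold ranges of the 10 genes. Nfe2l2 lies on the minus strand of chromosome 2 (GRCm38, 75675513 to 75704641). Its normalized counts were 4752 in replicate 1, 3706 in replicate 2 and 4852 in replicate 3, or 4437 ± 635 on average (SD, n = 3). Keap1, on the minus strand of chromosome 9 (21229730 to 21239361), gave 1399, 1187 and 1512 in the same order, or 1366 ± 165 on average (SD, n = 3). Both were lowest in replicate 2 and close in the other libraries. Their ratio per kb, which does not depend on how libraries are scaled, was 4.20, 3.86 and 3.97, the narrowest of the 5 partner ratios examined. Keap1 overlaps the antisense gene Gm16754, and the strand setting of the counting was not given in the sources used here, so reads of that gene could be included.

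Around these regulators, transcripts of the other proteins of the circuit were read from a list of 17 genes, of which 14 were detected. Sqstm1, which encodes the autophagy receptor p62 that can bind KEAP1 and is itself an NRF2 target, had the highest level of the list, 7987 ± 3073 normalized counts per kb (SD, n = 3). It had 36536, 15994 and 27879 normalized counts in replicates 1, 2 and 3, the lowest again in replicate 2. Nfe2l1, the related factor NRF1, had 11751, 11465 and 16431, and Park7, which encodes the redox-responsive protein DJ-1, had 3067, 2031 and 3156. Of the small MAF partners, Maff had 3091, 1550 and 2214, while Mafg had a mean of 3456 ± 741 and Mafk of 1545 ± 188 (SD, n = 3). Bach1, the heme-sensing repressor that competes for the same elements, was nearly equal in the libraries with 676, 681 and 648. Cul3, the ligase scaffold, was highest in replicate 2, at 2716 against 1535 and 1650. The family members Nfe2 and Nfe2l3 had at most 2 reads in any library. None of the 17 genes was more than 2-fold from both other libraries.

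Slc7a11 encodes the cystine importing subunit of system xc-, which supplies cysteine for glutathione. It lies on chromosome 3 from 49892526 to 50443614 and had 2283, 1089 and 2115 normalized counts in replicates 1, 2 and 3. Replicate 2 was thus 2.10-fold below replicate 1, while replicates 1 and 3 differed 1.08-fold. Slc3a2, the heavy chain it pairs with, did not share this drop, with 4935, 4652 and 5199. The Slc7a11 to Slc3a2 ratio per kb was accordingly 0.117, 0.0593 and 0.103. Annotated exons of Slc7a11 sum to 13922 bases, more than its longest transcript of 9223, so its level per kb is a low estimate. The same holds for Txnrd1 and Nfe2l2, as given above. The Slc7a11 span is overlapped by 5 other annotated genes.

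Glutamate-cysteine ligase, the rate-limiting enzyme of glutathione synthesis, is made of a catalytic subunit (Gclc) and a modifier subunit (Gclm), and their transcripts were not ordered alike. Gclc (chromosome 9, 77754535 to 77794485) had 1264, 1710 and 1163 normalized counts in replicates 1, 2 and 3. Gclm (chromosome 3, 122245557 to 122270732) had 4746, 2811 and 2993. The ratio of Gclc to Gclm per kb was 0.445, 1.02 and 0.649, a 2.28-fold range and the widest of the partner ratios. Gclc was highest in replicate 2 and Gclm in replicate 1. Replicates 2 and 3 differed little for Gclm, and their order turned with equal totals, as given above. The pseudogene Gm6061 and, on the opposite strand, Gm17494 overlap Gclm in the annotation. Further along the pathway, Gss, which completes glutathione, had 3172, 1663 and 2932 normalized counts, and Gsr, which regenerates it, had 1731, 1111 and 1252, both lowest in replicate 2.

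**Figure D3:**
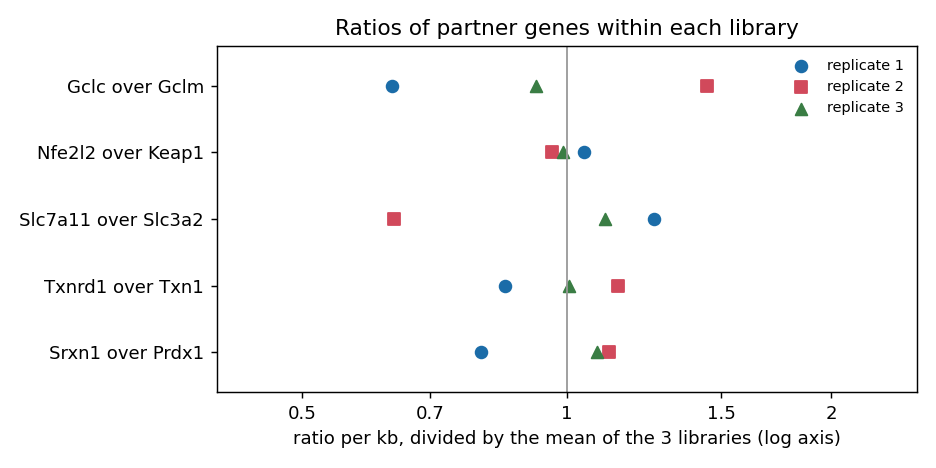
Ratio of the levels per kb of 5 gene pairs within each library, divided by the mean ratio of the 3 libraries (log axis), with 1 point per library. Nfe2l2 over Keap1 spans 1.09-fold, while Gclc over Gclm spans 2.28-fold, with replicate 2 highest.

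Other glutathione genes were taken from a list of 19, of which 18 were detected and 12 were lowest in replicate 2 (37.5% of all genes). The peroxidases Gpx1 and Gpx4 led it, with 5606 ± 1257 and 4119 ± 1174 normalized counts per kb (SD, n = 3), followed by Gpx8 with 2936 ± 721. Gpx3, the secreted peroxidase, had 8076, 1249 and 5763 (normalized counts, replicates 1 to 3), a value in replicate 2 far below both others. Glrx, a glutaredoxin, had 1373, 652 and 1450. In contrast, the transferases Gstm2 and Gsta4 were above both other libraries in replicate 2, with 609, 1300.0 and 167 for Gstm2 and 102, 753 and 43.9 for Gsta4. These belong to families of similar genes, and reads shared between copies were dropped by the unique alignment.

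Txnrd1 (chromosome 10, 82833951 to 82897712), the cytosolic thioredoxin reductase that uses NADPH to keep thioredoxin reduced, had 20459, 11473 and 16972 normalized counts. Srxn1 (chromosome 2, 152105516 to 152111376), which encodes sulfiredoxin and repairs overoxidized peroxiredoxins, had 16438, 8343 and 11861. Both genes were ordered alike, replicate 1 above 3 above 2, with ranges of 1.78-fold and 1.97-fold. The protein-coding gene Eid3 lies within the Txnrd1 span on the same strand, and how overlapping reads were counted was not given in the sources used here. The mitochondrial and testis-type reductases Txnrd2 and Txnrd3 were far lower, with 45.4 ± 11.5 and 58.1 ± 7.78 normalized counts per kb (SD, n = 3) against 2300 ± 639 for Txnrd1.

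Among the genes of thioredoxin and the peroxiredoxins, order varied. Txn1 and Prdx1 were ordered like Txnrd1 and Srxn1. Txn1 had 12187, 5084 and 8540 (normalized counts, replicates 1 to 3), and Prdx1 had 38497, 13970 and 20466. Txn1 and Prdx1 ranged over 2.40-fold and 2.76-fold, more than Txnrd1 and Srxn1 did. Prdx3 had the same order with 1912, 1803 and 1842, but a range of only 1.06-fold. Prdx5 had 7894, 5477 and 8529 and Prdx4 had 2013, 1674 and 2291, both highest in replicate 3. Prdx2, with 7454, 6837 and 6613, was lowest in replicate 3, and Prdx6, with 5927, 7625 and 5209, was highest in replicate 2. The ratio per kb of Txnrd1 to Txn1 was accordingly lowest in replicate 1, at 0.249 against 0.335 and 0.295, and so was that of Srxn1 to Prdx1, at 0.461 against 0.644 and 0.625. All 13 listed genes of the thioredoxin system were detected, 9 of them lowest in replicate 2 (37.5% of all genes). None of the 13 was more than 2-fold from both other libraries.

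Hmox1 encodes heme oxygenase-1, the inducible enzyme that breaks heme down to biliverdin, carbon monoxide and iron. The gene lies on the plus strand of chromosome 8 (75093621 to 75100589). Normalized counts were 130906 in replicate 1, 73538.5 in replicate 2 and 83762 in replicate 3, or 96069 ± 30600 on average (SD, n = 3). Replicate 1 was 1.78-fold above replicate 2 and 1.56-fold above replicate 3, which lay close to each other. By normalized counts Hmox1 stood at rank 6, 17 and 17 of all genes in these libraries, with 0.669%, 0.386% and 0.41% of all reads on genes. Its mean lay between those of Actb with 96828 and Vim with 94555, which encode cytoskeletal proteins. Per kb it was at rank 6 of 39368 genes, behind S100a4, Acta2, Rplp1, Lgals1 and Timp1.

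The constitutive isoform Hmox2 had 729, 634 and 900 normalized counts, and Hmox1 was 227, 147 and 118 times as high per kb in replicates 1, 2 and 3. Of the genes that act after it, Blvra and Blvrb, the biliverdin reductases, had means of 335 ± 30.2 and 757 ± 205 normalized counts (SD, n = 3). The ferritin chains that store the iron were abundant, Fth1 with 46738, 25822 and 36246 and Ftl1 with 24261, 23585 and 25346. Fth1 followed the order of Txnrd1 and Srxn1, whereas Ftl1 ranged over 1.07-fold. Slc40a1, which exports iron, was low with 48.6, 52.1 and 49.8. Slc48a1, a heme transporter, had 8656, 5572 and 10007.

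Macrophages also express Hmox1, and red cells carry heme, so markers of both were read in the same libraries. The 9 leukocyte and macrophage markers summed to 222, 295 and 882 normalized counts in replicates 1, 2 and 3, and 3 of the 9 were detected in every library. Lyz2, which encodes lysozyme, had 123, 62.7 and 601 and was the largest part of the sum in replicates 1 and 3. Csf1r had 57.3, 179 and 161 and was the largest part in replicate 2. Ptprc had at most 2 reads in any library. Adgre1 had 0, 6.34 and 23.7, Laptm5 had 1.74, 4.93 and 36.7 and Tyrobp had 0, 2.11 and 15.4 normalized counts. Lyz2, Laptm5 and Adgre1 were more than 2-fold above both other libraries in replicate 3. Cd52 was also highest there, with 0.868, 0.705 and 9.48. The list was mixed, as Cd68 was highest in replicate 2 with 22.6, 33.1 and 27.3. Cd74 was highest in replicate 1 with 14.8, 5.64 and 5.93. The part of such cells in the Hmox1 level was not tested. All 5 erythroid genes, Hba-a1, Hba-a2, Hbb-bs, Hbb-bt and Alas2, had 0 reads in each library, which allows up to 3 reads or 2.61, 2.11 and 3.56 normalized counts. Hemoglobin genes are near-identical copies whose shared reads unique alignment drops, which does not apply to Alas2. RNA reads do not measure heme or hemoglobin protein, so exposure of the cells to heme was not tested.

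Nqo1 (chromosome 8, 107388225 to 107403206, minus strand), whose product reduces quinones by 2 electrons, had 3304, 2999 and 4178 normalized counts in replicates 1, 2 and 3. With a range of 1.39-fold it was among the steadier members, and it was highest in replicate 3. Its relative Nqo2 had 636, 623 and 686. Of the 11 detoxification genes listed, 9 were detected. Esd and Ephx1 were the highest per kb, with 4152 ± 146 and 2487 ± 312 (SD, n = 3), and Akr1b8, an aldo-keto reductase gene, followed with 697 ± 62.0. Replicate 2 was lowest for 6 of the 10 genes with a mean of at least 10 (37.5% of all such genes). It was below both others by more than 2-fold for Aldh3a1, which had 56.4, 7.75 and 51.0 normalized counts. Cbr3 and Ptgr1, reductases often read as NRF2 targets, followed the order of Txnrd1 with 1272, 506 and 779 and with 2302, 943 and 1522. Others of the list did not. Ephx1 had 4330, 5518 and 4703 and Akr1b8 had 942, 1123 and 1069, both highest in replicate 2 and lowest in replicate 1.

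Osgin1 (chromosome 8, 119434124 to 119446256, plus strand), an oxidative stress induced growth inhibitor, was counted 1029, 242 and 439 times after normalization in replicates 1, 2 and 3. The mean of 570 ± 410 (SD, n = 3) had the largest relative spread of the 10 genes, a coefficient of variation of 71.9%. Replicate 1 was 4.26-fold above replicate 2 and 2.35-fold above replicate 3, and without it the mean was 340.1. The counting error of the library with the fewest reads was 5.40%, far less than these differences.

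NADPH feeds both the thioredoxin and the glutathione reductase, and the 6 listed enzymes that make it, or their pathway partners, were all detected. Taldo1 had 6700, 3978 and 7592 normalized counts. Pgd had 10558, 9712 and 9656 normalized counts and Me1 had 4827, 3825 and 3852. G6pdx, the entry of the pentose phosphate pathway, was more than 2-fold above both other libraries in replicate 2, with 643, 1766 and 800.1. Of the superoxide and peroxide enzymes, Sod3, the extracellular dismutase, was more than 2-fold below both in replicate 2, with 30656, 11229 and 33691. Sod1 had 3887, 2247 and 3286, and Cat, which encodes catalase, had 2035, 2060 and 1461.

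Among the 79 other genes of the pathway, from regulators to these enzymes, 73 were detected and 75 had a mean of at least 10. Replicate 2 was lowest for 46 of the 75 (61.3%, against 37.5% of all genes), and its median log2 ratio was -0.25, between the members at -0.47 and all genes at 0.02. The exact binomial test called 45 of the 75 higher in replicate 1 than in replicate 2 and 16 lower, where 69.1% of all genes were called in either direction. It called 40 higher and 14 lower in replicate 3 than in replicate 2 (62.6% of all genes called), and 33 higher in replicate 1 than in replicate 3 with 26 lower (52%). A range of more than 2-fold was seen for 15 genes, 20.5% of those detected, close to the 21.6% of all detected genes. By list the medians in replicate 2 ran from -0.81 for the 4 superoxide and peroxide genes to 0.01 for the regulators.

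**Figure D4:**
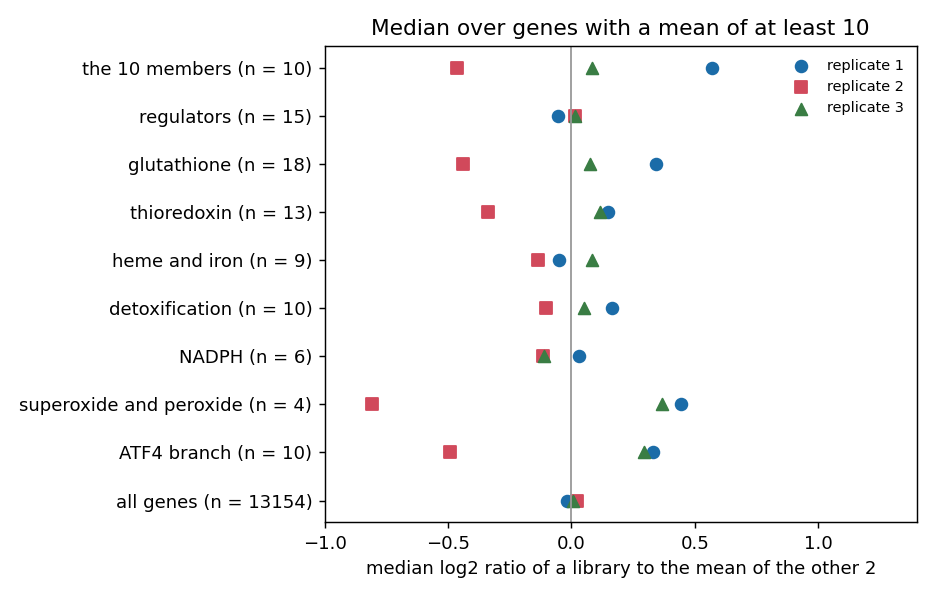
Median over each gene list of the log2 ratio of a library to the mean of the other 2, for genes with a mean of at least 10 normalized counts, with 1 point per library and all 13154 genes at the bottom. The 10 members lie at 0.57, -0.47 and 0.08 in replicates 1, 2 and 3, while the regulators lie within 0.06 of 0 in each library.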

How the data were processed

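RNA-seq libraries of 1 group (3 replicates) were analysed. The authors aligned single-end reads to mm10 with TopHat2 2.0.13, counted unique reads per gene with HTSeq 0.5.3p3, and deposited a signal table of counts divided by 1 DESeq size factor per library. The annotation and strand setting were not given in the sources used here. The 3 further columns of per-sample values matched no sample and were not used. In each library 100% of values were whole multiples, within 0.01, of the value of 1 read, so reads were recovered by division, with size factors of 1.15, 1.42 and 0.844. Of the names, 27 had been turned into dates.

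Means and SDs are of normalized counts, and log2 values and fold limits use a pseudocount of 1. Libraries were compared with exact binomial tests on recovered reads, after a check on simulated data. With 1 group no test between conditions was possible. Positions and exonic lengths came from GENCODE M21 (GRCm38), and promoter windows from RefSeq (GRCm38.p6). Python 3.11.15, numpy 2.4.6, scipy 1.17.1, pandas 2.3.3, R 4.3.3 and edgeR 4.0.16 (TMM factors) were used. The name Adgre1 was matched to its older symbol Emr1.

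The members, gene lists and motifs were chosen with earlier results of these data known, and the AP-1, ATF4 and TGANTCAGC letters were added after the files were examined. Genes named are the members, the highest per kb of each list, those more than 2-fold from both other libraries (at most 4 a list, by mean), the nearest profiles, and partner or example genes chosen after their values were seen. Alternatives were other pseudocounts, minimums, fold limits, scalings, lengths and motif letters, and each replicate left out. Intervals and limits cover counting error only, as reads carried no molecular identifiers.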

Additional observations from a re-analysis of the deposited data

How the results depend on the processing

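No paired analysis was possible because samples of only 1 group were analysed here. At a fold limit of 1.5 the members with a wide range rose from 2 to 6, and those apart from both other libraries to 3 in replicate 1 and 2 in replicate 2. With each replicate left out the members with a range over 2-fold numbered 0 to 2, none of them without replicate 1 and only Osgin1 without replicate 2. Those apart numbered 1 to 2 in replicate 1, 0 to 2 in replicate 2 and 0 to 1 in replicate 3. The median log2 ratio ranged from 0.20 to 0.79 in replicate 1, from -0.79 to -0.43 in replicate 2 and from -0.20 to 0.43 in replicate 3, where it reversed to -0.20 without replicate 2. With replicate 2 left out this value compares replicate 3 with replicate 1 only. It is therefore the same number as the 0.20 of replicate 1 with the sign turned, and not a separate result. Requiring more than 2-fold left 2, 1 and 0 members called for replicates 1 and 2, 1 and 3, and 2 and 3. Without the length correction 1 member kept its rank. The ARE core was in 4 members, in 1 on the gene's own strand alone, in 0 with the letters TGACTCAGC, and in 2 with TGANTCAGC, which was added after seeing the data. With equal totals the median in replicate 3 went from 0.08 to 0.0011 (all genes, 0.01 to -0.08), and the members lowest in replicate 3 from 1 to 2. The Osgin1 mean went from 570 to 340.1 without replicate 1. The means of single members moved by less than 1 SD in all 50 recalculations, which for leaving out 1 of 3 values says nothing about stability.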

Other observations

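Slc7a11 and a few further genes of the oxidative stress response are also known targets of ATF4, the factor of the integrated stress response, so a list of 10 genes of that branch was read. All 10 were detected and 7 were lowest in replicate 2 (37.5% of all genes), with a median log2 ratio of -0.49 there. Atf4 itself had 11097, 7302 and 9330 normalized counts in replicates 1, 2 and 3. The branch was mixed in replicate 2. Trib3, a pseudokinase gene, had 927, 382 and 1294, and Cebpb, a transcription factor gene, had 1137, 272 and 897, each more than 2-fold below both other libraries. Psat1, of serine synthesis, was more than 2-fold above both, with 1945, 5158 and 2576, and Phgdh, the enzyme before it, had 2699, 5234 and 3507. Asns, of asparagine synthesis, had 3390, 3042 and 4052. Chac1, whose product degrades glutathione, had 640.0, 424 and 672.

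The genes nearest in pattern to the 3 most variable members were found by Euclidean distance of centered log2 values over the 3 libraries, over the 9991 genes averaging 100 normalized counts or more. Nearest to Srxn1 was Maff, the small MAF gene, at a distance of 0.0121, followed by Hspb11 and Mrpl34. For Osgin1 the nearest were Siglec1 at 0.062 with 301, 66.9 and 121 normalized counts and Krt20 at 0.0869, then 2410004N09Rik at 0.206. For Slc7a11 they were Cox14, Timm13 and Tmed9, all within 0.0179. With 3 libraries such distances describe these libraries only.

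Of the other markers read, 4 of the 5 keratinocyte genes had at most 2 reads in any library, and Krt10 had 80.8, 39.5 and 32.0 normalized counts. The 5 endothelial genes summed to 90.3, 244 and 55.7, with most of the value in replicate 2 from Tek at 185, while Egfl7 had 69.5, 53.6 and 49.8. Among the fibroblast markers Col1a2 had 64375, 88384 and 116185, and Dcn had 3661, 1723 and 3659.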
